A study of Mus musculus with 4 samples.

Results

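The mitochondrial protein import and dynamics genes were examined in Ly6G+ myeloid cells from the bone marrow of wild type (*lal+/+*) and *lal−/−* mice. *lal−/−* mice lack lysosomal acid lipase, the enzyme encoded by *Lipa* that breaks down neutral lipids taken up into lysosomes. The set was defined by name: every gene on the array whose symbol begins with *Tomm* or *Timm* and a digit, plus 19 named genes of the import motor, the outer membrane sorting machinery, the presequence peptidase, the cristae junction, and mitochondrial fission and fusion. The rule itself uses names and no measured value. 43 genes were found among the 19938 genes tested, of which 10 were *Tomm* genes, 14 were *Timm* genes and 19 were the named genes. 1 further probe set that names *Timm10b* together with another gene was left out.

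There were 2 arrays of *lal+/+* and 2 of *lal−/−* cells, from mice aged 5 months that had been back-crossed onto FVB/N. The labels call the cells CD11b+ and Gr-1+ myeloid-derived suppressor cells, and the study's methods describe magnetic selection with an antibody to Ly6G. The deletion is present in the whole animal, so the *lal−/−* marrow had developed in *lal−/−* mice. No source links the arrays to single mice, so the p-values measure the spread between arrays, which may be technical. The quantity measured was the RNA level of each gene on the Mouse Gene 1.0 ST array, as a log2 value. A difference is given as *lal−/−* minus *lal+/+* on the log2 scale, where 1 is a 2-fold change. A gene was called changed at an adjusted p under 0.05 with a fold of at least 2, and the words rose and fell are used of called genes.

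Most mitochondrial proteins are made in the cytosol and enter the organelle through the TOM complex, the gate of the outer membrane. From there, small TIM chaperones carry membrane proteins across the intermembrane space, the presequence translocase and its motor draw matrix proteins through the inner membrane, and a peptidase removes the targeting sequence. Mitochondria also divide and fuse: a dynamin GTPase and its receptors on the outer membrane drive fission, mitofusins and OPA1 drive fusion, and inner membrane proteases such as OMA1 cut OPA1 under stress.

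The deleted gene and the cell markers were checked first. *Lipa* gave 9.50 and 9.05 in *lal+/+* and 7.37 and 7.49 in *lal−/−*, a difference of -1.85 (SE 0.17, adjusted p = 4.17e-04, limma), though no source says if its probes lie in the disrupted part. *Ly6g* gave 10.19 and 9.80 against 12.91 and 12.84. The arrays also differed in the markers of other cells. All 9 of 9 B cell markers fell, and their summed linear level was 8953 and 8094 in *lal+/+* against 671 and 624 in *lal−/−*, with 4 of the 9 below the level of silent genes in *lal−/−*. 8 of 11 monocyte and macrophage markers fell, with sums of 8260 and 7459 against 1872 and 1840, and 5 of the 11 were below that level in *lal−/−*. 12 of 17 granulocyte markers rose, among them *Ctsg* by 3.78 and *Mpo* by 3.75, both from *lal+/+* levels below that of silent genes, and *Itgam* (CD11b) by 1.19, and 1 fell, *Csf3r*, at -1.91. Of the other lists, 11 of 14 cell division genes rose, 3 of 7 T cell and NK cell markers fell and 1 rose, and 0 of 6 erythroid markers were called (1 with a common median). In a bulk sample, fewer cells of a type and less RNA per cell cannot be told apart, and the part that these other cells play in the differences below was not tested. The level of silent genes was taken as the 95th percentile of 1035 olfactory receptor probe sets, 6.79 in *lal+/+* and 6.29 in *lal−/−*. Array values correlated at 0.988 within *lal+/+*, 0.994 within *lal−/−* and 0.927 to 0.937 between the genotypes.

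Of the 43 genes, 8 rose in *lal−/−* cells and 2 fell, while 33 were not called. The 8 make up 18.6% of the set, where 7.56% of all genes tested rose, and the 2 make up 4.65%, where 3.24% of all genes fell. *Fis1*, *Timm17b*, *Mfn2*, *Tomm22*, *Oma1*, *Timm13*, *Samm50* and *Tomm5* rose, and *Hspa9* and *Timm8a1* fell. They lie in different parts of the machinery: the genes that rose came from 7 of 11 roles, and no role had more than 2. These calls rest on variances moderated across genes. An ordinary linear model of each gene alone called 0 of the 43 and 0 of all genes. In that model 12 of the 43 and 5691 of all 19938 genes had an unadjusted p under 0.05, which are similar shares. At an adjusted p under 0.05 without a fold threshold, 18 genes were higher and 5 were lower, against 19.8% and 9.85% of all genes. Both *lal−/−* arrays stood above both *lal+/+* arrays for 26 genes, which is 60.5% beside 41.6% of all genes. Both stood below for 7, which is 16.3% beside 24.1% of all genes. The groups overlapped for 10. The median difference was 0.31 over the set and 0.08 over all genes tested.

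**Figure D1:**
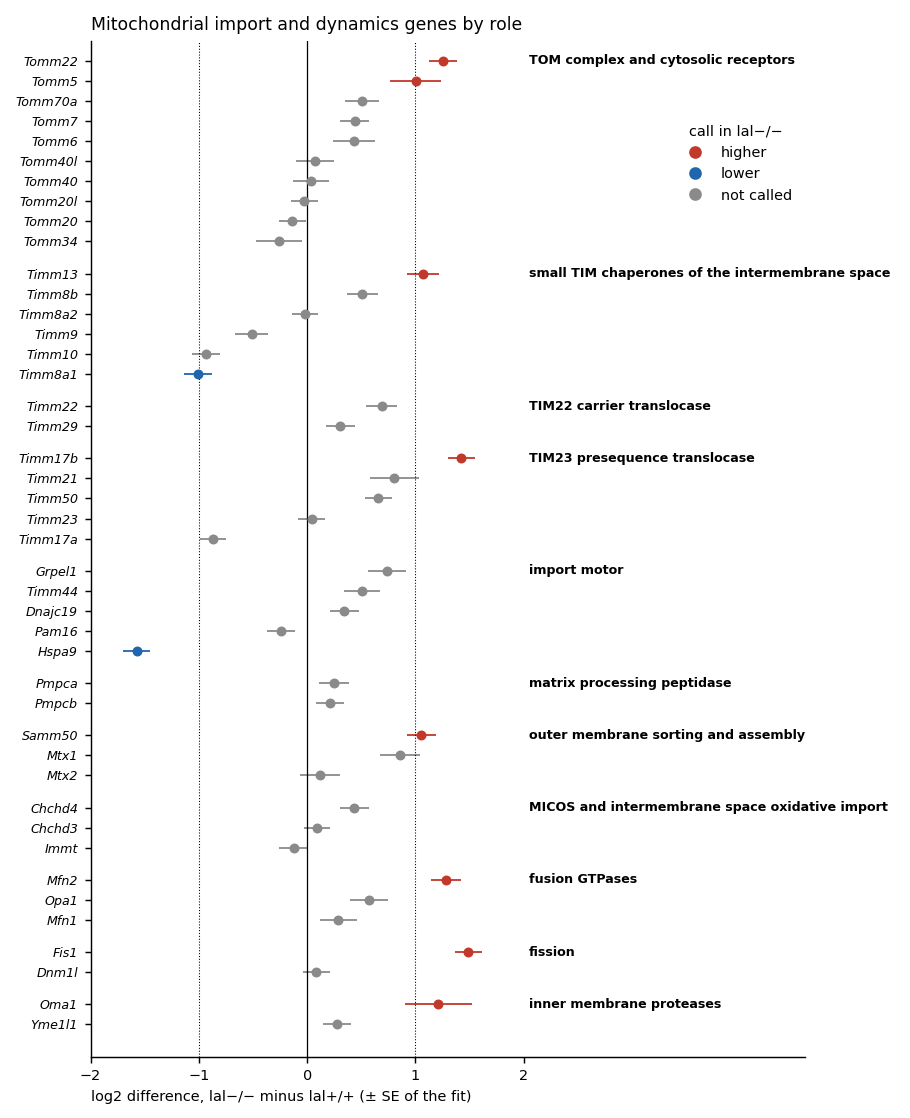
Difference between *lal−/−* and *lal+/+* cells on the log2 scale for all 43 genes, grouped by role, with the standard error of the fit as bars and dotted lines at the 2-fold threshold. The 8 genes in red, from *Tomm5* at 1.003 to *Fis1* at 1.49, and the 2 in blue, *Timm8a1* at -1.01 and *Hspa9* at -1.57, are spread over the roles rather than gathered in one.

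The size of these differences depended on how the arrays were scaled. The values as deposited had medians that differed by up to 0.208 between arrays, so they were quantile normalized for the values given here. The median of the set was 0.53 in the values as deposited and 0.71 after the arrays had been shifted to the same median, where the median of all genes was -0.05 and 0.12. Relative to all genes, the set's median stood 0.22 higher after quantile normalization and 0.58 higher in either of the other scalings. With the values as deposited 9 genes rose and 1 fell, and with a common median 12 rose and 0 fell, where 10.1% and 13.1% of all genes rose. At an adjusted p under 0.05 without a fold threshold, 25 were higher and 5 lower as deposited. With a common median 27 were higher and 4 lower, against 18 and 5 after quantile normalization. No share of all genes was taken without a fold threshold in the values as deposited or with a common median. The larger counts of higher genes there therefore have no share of all genes to be read against. All 8 genes that rose were called in all 3 scalings. *Hspa9* lost its call with a common median and *Timm8a1* lost it in both of the other scalings, and both stayed below 0 in each.

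**Figure D2:**
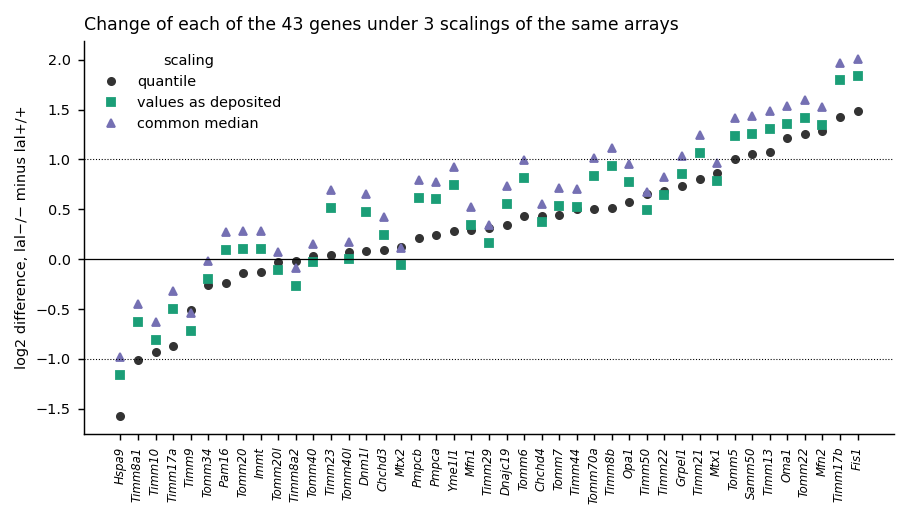
Difference between *lal−/−* and *lal+/+* cells on the log2 scale for each of the 43 genes, in order of the quantile normalized value, under the 3 scalings (circles, squares and triangles). The right end of the plot, from *Tomm5* to *Fis1*, lies at or above 1 in all 3 scalings, while *Hspa9* at the left end moves from -1.57 to -1.16 and -0.98.

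The TOM complex was represented by 10 genes, of which *Tomm22* and *Tomm5* rose and 8 were not called. *Tomm22*, the central receptor that takes precursors from the peripheral receptors, was at 7.05 and 7.20 in *lal+/+* and at 8.37 and 8.39 in *lal−/−*. The *lal−/−* arrays were high and close to each other, and the groups did not overlap. The mean was 7.12 ± 0.11 against 8.38 ± 0.01 (SD, n = 2 each), a difference of 1.26 (SE 0.13, adjusted p = 5.44e-04, limma), or 2.39-fold. *Tomm5*, a small subunit of the pore, had 7.07 and 7.81 in *lal+/+* and 8.41 and 8.48 in *lal−/−*. Here the *lal+/+* arrays were far apart, and both still lay below the *lal−/−* arrays. The difference was 1.003 (SE 0.23, adjusted p = 0.0177, limma), and it was 0.65, below the fold threshold, without *lal+/+* replicate 1 and 0.92 without *lal−/−* replicate 2.

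The other subunits gave smaller differences. *Tomm40*, which forms the pore itself, gave 0.04 (SE 0.16) and its homolog *Tomm40l* 0.07, and both had overlapping groups. *Tomm20*, the presequence receptor, gave -0.14 (SE 0.12), and its homolog *Tomm20l* -0.03. 2 probe sets of *Tomm20* lay on either side of 0, at -0.14 and 0.13, and the sign for *Tomm20* turned with the scaling. *Tomm70a*, the receptor for carrier proteins that docks cytosolic chaperones, gave 0.51 (SE 0.16, adjusted p = 0.0484, limma) and 1.02, where it was called higher, with a common median, and the small subunit *Tomm7* gave 0.44 (SE 0.13, adjusted p = 0.0479, limma). When any single array was left out, *Tomm70a* ranged from 0.34 to 0.70 and *Tomm7* from 0.30 to 0.52. *Tomm6*, another small subunit, gave 0.43 (SE 0.20, adjusted p = 0.147, limma) and did not pass the test, but it was 0.82 as deposited and 0.998 with a common median, with adjusted p = 0.00660 and 0.00126 (limma), and 0.21 without *lal+/+* replicate 1. *Tomm34*, a cytosolic co-chaperone of import, gave -0.26 (SE 0.21) and did not pass in any of the 3 scalings.

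**Figure D3:**
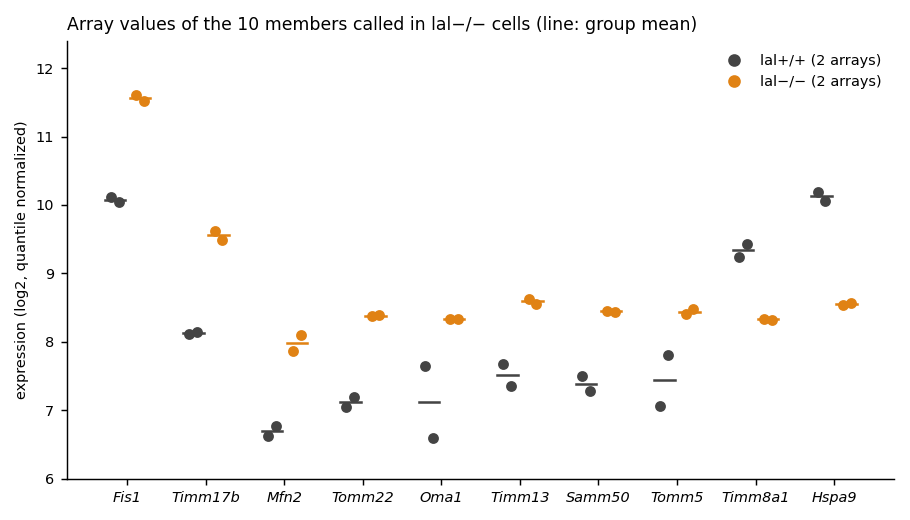
Quantile normalized log2 expression of the 10 called genes in each of the 4 arrays (points, *lal+/+* in grey and *lal−/−* in orange) with the group means as lines. In every one of the 10 the groups are separate, while the *lal+/+* points of *Oma1* (7.65 and 6.60) and *Tomm5* (7.07 and 7.81) are the widest apart.

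The small TIM chaperones, which escort hydrophobic proteins through the intermembrane space, moved in both directions. Among 6 genes, *Timm13* rose, *Timm8a1* fell and 4 were not called. *Timm13* gave 7.68 and 7.36 in *lal+/+* and 8.62 and 8.56 in *lal−/−*, where both arrays were higher. Its difference was 1.07 (SE 0.15, adjusted p = 0.00195, limma), or 2.10-fold, from means of 7.52 ± 0.22 and 8.59 ± 0.05 (SD, n = 2 each). *Timm8a1*, the X-linked gene of the protein that is lost in human deafness-dystonia syndrome and pairs with TIMM13 in a hexamer, gave 9.25 and 9.43 in *lal+/+* and 8.33 and 8.32 in *lal−/−*. Both *lal−/−* arrays were lower, and the groups did not overlap. The difference was -1.01 (SE 0.13, adjusted p = 0.00140, limma), from means of 9.34 ± 0.13 and 8.33 ± 0.01 (SD, n = 2 each), and a second probe set gave -0.86. It was close to the fold threshold and was -0.63 in the values as deposited, -0.45 with a common median, and -0.95, -0.99 and -0.98 without *lal+/+* replicate 2, *lal−/−* replicate 1 and *lal−/−* replicate 2. *Timm13* was likewise 0.96 without *lal+/+* replicate 2 and 0.9997 without *lal−/−* replicate 1.

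The partners of the other hexamer, *Timm9* and *Timm10*, were both lower without reaching the fold threshold. *Timm10* gave 8.02 and 8.04 in *lal+/+* and 7.01 and 7.19 in *lal−/−*, with a difference of -0.93 (SE 0.13, adjusted p = 0.00194, limma). *Timm9* gave -0.51 (SE 0.15, adjusted p = 0.0437, limma), but its level was below that of silent genes in both genotypes. When any single array was left out, *Timm9* ranged from -0.69 to -0.35. *Timm8b*, the paralog of *Timm8a1*, was higher by 0.51 (SE 0.14, adjusted p = 0.0339, limma), and by 0.93 as deposited and 1.11, where it was called, with a common median. It ranged from 0.37 to 0.65 when any single array was left out. *Timm8a2* gave -0.02 (SE 0.12) and was also below the level of silent genes in both genotypes.

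The carrier translocase inserts metabolite carriers into the inner membrane. Its channel gene *Timm22* gave 6.67 and 6.57 in *lal+/+* and 7.17 and 7.45 in *lal−/−*, a difference of 0.69 (SE 0.14, adjusted p = 0.0112, limma), and its *lal+/+* mean of 6.62 ± 0.07 (SD, n = 2) was below the level of silent genes, beside 7.31 ± 0.20 (SD, n = 2) in *lal−/−*. When any single array was left out, *Timm22* ranged from 0.52 to 0.79. *Timm29*, another subunit, gave 0.31 (SE 0.13) and did not pass the test in any of the 3 scalings.

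The presequence translocase held a pair of paralogs with differences of opposite sign. *Timm17b* rose, and its paralog *Timm17a*, which encodes the alternative subunit at the same place beside the TIMM23 channel, was lower. *Timm17b* gave 8.12 and 8.14 in *lal+/+* and 9.62 and 9.49 in *lal−/−*. All 4 arrays lay close to their group means, 8.13 ± 0.02 and 9.56 ± 0.09 (SD, n = 2 each), and the difference was 1.43 (SE 0.12, adjusted p = 3.05e-04, limma), or 2.69-fold. *Timm17a* gave 9.06 and 9.13 in *lal+/+* and 8.22 and 8.24 in *lal−/−*. Both *lal−/−* arrays were lower, by 0.87 on average (-0.87, SE 0.12, adjusted p = 0.00203, limma), which passed the adjusted p and not the fold threshold, and a second probe set gave -0.73. The value for *Timm17a* was -0.50 in the values as deposited and -0.32, with adjusted p = 0.121 (limma), with a common median. *Timm23*, the channel subunit, gave 9.69 and 9.84 against 9.81 and 9.81, a difference of 0.04 (SE 0.13), and its 4 probe sets lay between 0.04 and 0.07. 2 of those 4 probe sets held identical values. The value for *Timm23* was 0.52 in the values as deposited and 0.69 with a common median, with adjusted p = 0.0162 and 0.00319 (limma). *Timm50*, the receptor on the intermembrane side, gave 0.66 (SE 0.12, adjusted p = 0.00714, limma) from a *lal+/+* level below that of silent genes. It ranged from 0.61 to 0.71 when any single array was left out. *Timm21*, which joins the translocase to the TOM complex and the respiratory chain, gave 0.81 (SE 0.22, adjusted p = 0.0344, limma) and was called higher in both of the other scalings. Without *lal+/+* replicate 2 it was 0.50 (adjusted p = 0.0699, limma) and without *lal−/−* replicate 1 it was 0.66 (adjusted p = 0.113, limma).

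The 300 bases around the transcription start are shown for these paralogs, for the partners *Timm13* and *Timm8a1*, and for *Fis1*, because they hold the pairs that moved apart and the largest increase. The windows run from 250 bases before to 50 after the start, 5′ to 3′ on the strand of the gene, and were taken from RefSeq on build GRCm38.p6. They lie at chrX:7899086-7899385 (+ strand, *Timm17b*), chr1:135313688-135313987 (− strand, *Timm17a*), chr10:80900920-80901219 (− strand, *Timm13*), chrX:134541621-134541920 (− strand, *Timm8a1*) and chr5:136953025-136953324 (+ strand, the first of 2 starts listed for *Fis1*). Capitals mark matches on either strand to GCGCATGC (a half-site of the nuclear respiratory factor NRF1), CCGGAAGT (the site of ETS factors such as GABP), CACGTG (the E-box bound by MYC and related factors) and CCAAT.
Timm17b: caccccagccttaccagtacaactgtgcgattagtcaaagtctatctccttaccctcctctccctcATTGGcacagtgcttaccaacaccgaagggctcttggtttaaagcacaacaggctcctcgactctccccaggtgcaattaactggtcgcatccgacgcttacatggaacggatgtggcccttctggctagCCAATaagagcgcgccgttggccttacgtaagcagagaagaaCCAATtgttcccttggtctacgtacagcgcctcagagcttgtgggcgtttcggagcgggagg
Timm17a: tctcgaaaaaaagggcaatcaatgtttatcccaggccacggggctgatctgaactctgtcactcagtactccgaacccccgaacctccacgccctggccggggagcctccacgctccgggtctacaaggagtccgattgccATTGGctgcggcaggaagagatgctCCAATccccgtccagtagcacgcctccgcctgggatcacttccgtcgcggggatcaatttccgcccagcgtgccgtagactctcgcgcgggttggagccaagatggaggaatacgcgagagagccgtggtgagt
Timm13: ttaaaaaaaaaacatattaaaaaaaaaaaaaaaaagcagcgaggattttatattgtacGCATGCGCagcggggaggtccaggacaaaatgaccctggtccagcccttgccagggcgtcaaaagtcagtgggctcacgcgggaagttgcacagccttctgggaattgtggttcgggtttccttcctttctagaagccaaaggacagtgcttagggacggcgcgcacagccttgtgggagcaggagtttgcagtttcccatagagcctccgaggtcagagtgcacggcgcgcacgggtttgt
Timm8a1: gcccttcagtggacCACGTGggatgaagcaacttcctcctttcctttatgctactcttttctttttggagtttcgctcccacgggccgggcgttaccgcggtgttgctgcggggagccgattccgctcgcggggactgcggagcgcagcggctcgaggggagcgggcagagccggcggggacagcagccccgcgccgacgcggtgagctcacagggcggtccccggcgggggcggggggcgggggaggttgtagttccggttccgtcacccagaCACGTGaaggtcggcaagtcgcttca
Fis1: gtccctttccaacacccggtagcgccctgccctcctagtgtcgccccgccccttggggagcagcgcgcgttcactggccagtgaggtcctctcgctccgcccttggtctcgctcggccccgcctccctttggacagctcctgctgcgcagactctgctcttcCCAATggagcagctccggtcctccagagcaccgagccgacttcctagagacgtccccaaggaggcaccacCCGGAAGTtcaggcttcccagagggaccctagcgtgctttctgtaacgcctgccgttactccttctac

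The *Timm17b* window held CCAAT and its reverse complement and none of the other motifs, and so did that of *Timm17a*, so these letters did not set the paralogs apart. *Timm13* held the NRF1 half-site. *Timm8a1* held the E-box at 2 places. *Fis1* held the ETS site and CCAAT. 39 of the 43 genes were in the promoter table, and *Hspa9*, *Timm21*, *Tomm40l* and *Tomm7* were not. CCGGAAGT was present in 9 of the 39 (23.1%), which were *Fis1*, *Mfn1*, *Mtx2*, *Pmpcb*, *Timm10*, *Timm23*, *Timm29*, *Timm8a2* and *Tomm70a*, and in 3.89% of all 32851 promoters in the table and 6.03% of the genes on the array. CACGTG was present in 6 (15.4%), which were *Chchd3*, *Timm10*, *Timm8a1*, *Timm9*, *Tomm20* and *Tomm20l*, beside 7.15% of all promoters and 9.52% of the genes on the array. GCGCATGC was found in *Grpel1*, *Opa1* and *Timm13* (7.69%, beside 2.71% and 4.29%). The longer NRF1 site, which is that half-site followed by GC, was found in *Opa1* alone (2.56%, beside 0.971% and 1.62%). CCAAT was present in 17 (43.6%, beside 37.4% and 41.7%). The 9 genes with the ETS site comprised 1 gene that rose and 0 that fell. A match of letters is a description and not evidence of binding.

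The import motor, which pulls the precursor into the matrix, held the largest decrease of the set. *Hspa9* encodes mortalin, the matrix HSP70 at the core of the motor. It gave 10.20 and 10.05 in *lal+/+* and 8.54 and 8.56 in *lal−/−*. Both *lal−/−* arrays were low and close to each other, and the groups did not overlap. The mean fell from 10.13 ± 0.10 to 8.55 ± 0.02 (SD, n = 2 each), a difference of -1.57 (SE 0.12, adjusted p = 2.22e-04, limma), or 2.98-fold lower. It was -1.16 in the values as deposited and -0.98, just short of the fold threshold, with a common median. The co-factors of *Hspa9* differed from it. *Grpel1*, the nucleotide exchange factor, gave 6.96 and 7.41 in *lal+/+* and 7.85 and 7.99 in *lal−/−*, a difference of 0.74 (SE 0.17, adjusted p = 0.0185, limma). It was called higher, at 1.04, with a common median and, at 1.02, without *lal+/+* replicate 2, and without *lal−/−* replicate 2 it did not pass (adjusted p = 0.0884, limma). *Timm44*, which tethers HSPA9 to the translocase, gave 0.51 (SE 0.16), *Dnajc19*, a J-domain partner, gave 0.34 (SE 0.13), and *Pam16*, its regulator, gave -0.24 (SE 0.13), and none of the 3 passed the test. In the values as deposited and with a common median *Timm44* gave 0.53 and 0.71 and *Dnajc19* gave 0.55 and 0.73, and both genes passed the adjusted p in each, while the sign for *Pam16* turned.

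The presequence peptidase, which removes the targeting sequence in the matrix, did not pass the test in either subunit after quantile normalization. *Pmpca* gave 8.40 and 8.40 in *lal+/+* and 8.78 and 8.51 in *lal−/−*, a difference of 0.24 (SE 0.14, adjusted p = 0.235, limma) between means of 8.40 ± 0.00 and 8.65 ± 0.19 (SD, n = 2 each). The catalytic *Pmpcb* gave 0.21 (SE 0.13). Both passed the adjusted p in the other scalings, without reaching the fold threshold: *Pmpca* gave 0.60 as deposited and 0.78 with a common median, and *Pmpcb* gave 0.62 and 0.80.

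Of the outer membrane sorting and assembly machinery, which inserts barrel proteins such as TOMM40, *Samm50* rose. Its values were 7.50 and 7.28 in *lal+/+* and 8.45 and 8.44 in *lal−/−*, with the *lal−/−* arrays higher. The difference was 1.05 (SE 0.13, adjusted p = 0.00137, limma), or 2.08-fold, between means of 7.39 ± 0.16 and 8.44 ± 0.01 (SD, n = 2 each), and it was 0.99 without *lal+/+* replicate 2. Its partner *Mtx1* gave 0.86 (SE 0.19, adjusted p = 0.0131, limma) and was called higher, at 1.15, without *lal+/+* replicate 2, but did not pass without *lal−/−* replicate 1 (0.74, adjusted p = 0.0538, limma), and *Mtx2* gave 0.12 (SE 0.19) with overlapping groups. Both metaxin genes were below the level of silent genes in *lal+/+*.

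Among genes of the cristae junction and of oxidative import, 0 of 3 were called. *Chchd4*, the oxidoreductase that traps small cysteine-rich proteins in the intermembrane space, gave 6.75 and 6.63 in *lal+/+* and 7.03 and 7.22 in *lal−/−*, a difference of 0.44 (SE 0.13, adjusted p = 0.0471, limma) between means of 6.69 ± 0.09 and 7.12 ± 0.13 (SD, n = 2 each). The *lal+/+* mean was below the level of silent genes, and the difference ranged from 0.33 to 0.51 when any single array was left out. *Chchd3* gave 0.09 (SE 0.12) and *Immt*, the core of the cristae junction complex, -0.13 (SE 0.14), with a sign that turned in the other scalings.

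Fission and fusion each had a gene that rose beside others that did not. *Fis1*, the outer membrane adaptor of fission, showed the largest increase of the set. It gave 10.11 and 10.04 in *lal+/+* and 11.61 and 11.51 in *lal−/−*. The groups were separated by far more than the arrays of a genotype differed. The means were 10.07 ± 0.05 and 11.56 ± 0.07 (SD, n = 2 each), a difference of 1.49 (SE 0.12, adjusted p = 2.61e-04, limma), or 2.81-fold. *Dnm1l*, the GTPase that constricts the organelle, gave 8.87 and 8.73 against 8.92 and 8.85, a difference of 0.08 (SE 0.13) with overlapping groups. It was 0.47 as deposited and 0.65 with a common median, with adjusted p = 0.0377 and 0.00929 (limma).

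For fusion, *Mfn2*, the mitofusin that also tethers mitochondria to the endoplasmic reticulum, gave 6.63 and 6.77 in *lal+/+* and 7.86 and 8.10 in *lal−/−*. Both *lal−/−* arrays were higher, and the *lal+/+* mean of 6.70 ± 0.10 was below the level of silent genes, against 7.98 ± 0.17 in *lal−/−* (SD, n = 2 each). The measured difference was 1.28 (SE 0.14, adjusted p = 7.59e-04, limma). The *lal−/−* mean of *Mfn2* was 2.30-fold above the level of silent genes in *lal+/+*, without regard to the spread of the arrays. Its paralog *Mfn1* gave 0.29 (SE 0.17) with overlapping groups, and *Opa1*, the fusion GTPase of the inner membrane, gave 0.57 (SE 0.18, adjusted p = 0.0498, limma), with 0.38 (adjusted p = 0.275, limma) without *lal−/−* replicate 2 and 0.42 (adjusted p = 0.149, limma) without *lal+/+* replicate 2. *Oma1*, the protease that cuts OPA1 under stress, gave 7.65 and 6.60 in *lal+/+* and 8.34 and 8.33 in *lal−/−*. The *lal+/+* arrays differed from each other by nearly as much as the genotypes did. The difference was 1.21 (SE 0.31, adjusted p = 0.0249, limma) between means of 7.13 ± 0.74 and 8.34 ± 0.00 (SD, n = 2 each), and it was 1.79 without *lal+/+* replicate 1 and 0.72, below the fold threshold, without *lal+/+* replicate 2. *Yme1l1*, the protease that cuts OPA1 constitutively, gave 0.28 (SE 0.13) and did not pass the test, but gave 0.74 as deposited and 0.92 with a common median, with adjusted p = 0.00557 and 0.00149 (limma).

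Paralogs and partners were then set against each other within each array, which leaves out most of the scaling. A shift to a common median adds the same amount to every gene of an array, so such differences stay exactly as deposited. 15 pairs were compared. They were chosen after the values had been seen, so the differences are a description, and with 2 arrays a group the exact two-sided permutation p cannot go below 0.333. The groups did not overlap in 13 of the 15 pairs after quantile normalization and in 12 in the other scalings, which are a single setting here. No such share was taken over all pairs of genes, so the count says nothing particular about these pairs. Among single genes, both *lal−/−* arrays stood above both *lal+/+* arrays for 41.6% and below for 24.1% of all genes tested. *Timm17b* changed by 2.29 more than *Timm17a* (SE 0.05), with 2.29 in the other scalings and 2.15 to 2.36 when any single array was left out. *Timm13* changed by 2.08 more than *Timm8a1* (SE 0.18, and 1.93 in the other scalings), and *Timm8b* by 1.52 more than *Timm8a1* (SE 0.16). *Grpel1* changed by 2.31 more than *Hspa9* (SE 0.21, and 2.02 in the other scalings). In each of these 4 pairs 1 gene was higher and the other lower in *lal−/−* cells, in all 3 scalings.

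In 5 other pairs a gene that rose stood beside one that was not called. *Fis1* changed by 1.41 more than *Dnm1l* (SE 0.03), *Tomm22* by 1.39 more than *Tomm20* (SE 0.06), and *Mfn2*, from a *lal+/+* level below that of silent genes, by 0.997 more than *Mfn1* (SE 0.17). *Samm50* changed by 0.93 more than *Mtx2* (SE 0.13), and *Oma1* by 0.93 more than *Yme1l1* (SE 0.31, and 0.61 in the other scalings), the latter ranging from 0.53 to 1.42 when any single array was left out. In another 2 pairs neither gene was called. *Mtx1* changed by 0.74 more than *Mtx2* (SE 0.32), with 0.30 to 1.24 when any single array was left out. *Grpel1* changed by 1.11 more than *Grpel2*, its paralog outside the set (SE 0.12).

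4 pairs gave little or nothing that held across scalings. The peptidase subunits *Pmpca* and *Pmpcb* differed by 0.03 (SE 0.13) and the pore genes *Tomm40* and *Tomm40l* by -0.04 (SE 0.30), both with overlapping groups. *Timm9* and *Timm10* differed by 0.42 (SE 0.12) after quantile normalization and by 0.09 in the other scalings, and *Tomm20* and *Tomm20l* by -0.11 (SE 0.05), which turned to 0.21.

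**Figure D4:**
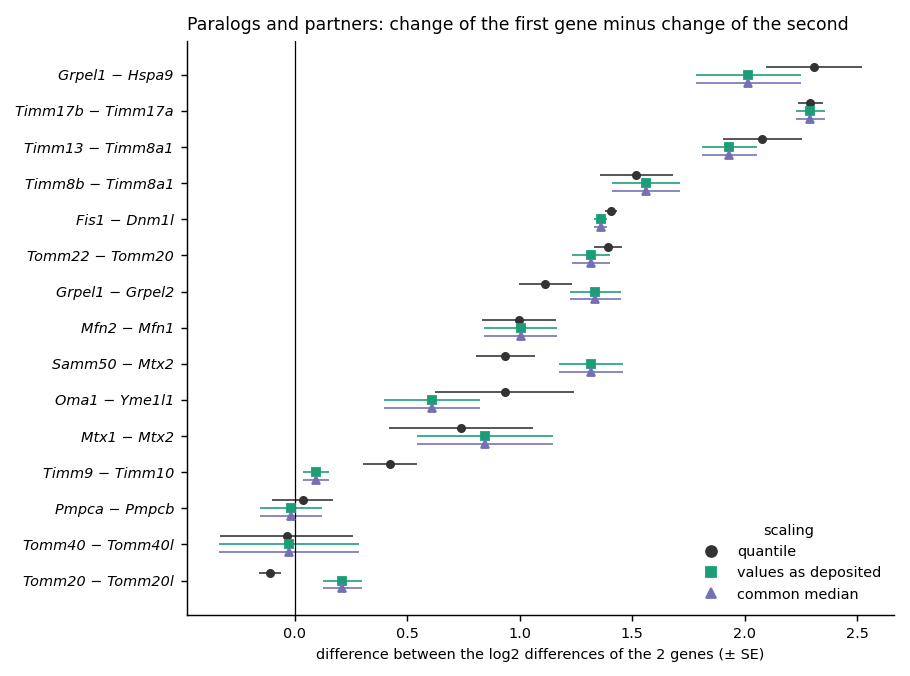
Difference between the log2 differences of 2 genes (first minus second) for the 15 pairs, with its standard error over the arrays, under the 3 scalings. The values as deposited and the common median give the same difference by construction. The pair *Timm17b* and *Timm17a* lies at 2.29 in all 3, while *Tomm20* and *Tomm20l* lie on either side of 0.

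Genes that work next to this machinery were taken as lists. Of 24 measured genes for related import, sorting and processing steps, 2 rose and 0 fell (8.33% rose, beside 7.56% of all genes), and their median was 0.26. As deposited 5 rose (20.8%, beside 10.1% of all genes) and with a common median 7 rose (29.2%, beside 13.1%). *Bcs1l*, an inner membrane chaperone that assembles complex III, gave 6.63 and 5.98 in *lal+/+* and 7.80 and 7.78 in *lal−/−*, a difference of 1.49 (SE 0.21, adjusted p = 0.00228, limma). Its *lal+/+* mean was below the level of silent genes, and its *lal−/−* mean was 2.003-fold above that level in *lal+/+*. *Mtch1*, a carrier homolog of the outer membrane, gave 7.94 and 8.07 against 9.30 and 8.90, a difference of 1.10 (SE 0.16, adjusted p = 0.00271, limma). The *lal−/−* arrays were higher for both genes, and the groups did not overlap.

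The chaperonin that folds imported proteins in the matrix fell, as did *Hspa9*. Of 15 measured chaperones, proteases and prohibitins, 0 rose and 2 fell, where 7.56% of all genes rose and 3.24% fell. Their median was -0.03. *Hspe1*, the co-chaperonin, gave 12.17 and 12.13 in *lal+/+* and 10.63 and 10.56 in *lal−/−*, a difference of -1.55 (SE 0.12, adjusted p = 2.10e-04, limma). *Hspd1*, which encodes its HSP60 partner, gave 11.09 and 11.10 against 9.83 and 9.89, a difference of -1.23 (SE 0.12, adjusted p = 4.93e-04, limma). Both were low in both *lal−/−* arrays, and *Hspd1* was -0.80 in the values as deposited and -0.63 with a common median, where it was no longer called. With the other scalings 1 gene of this list, *Parl*, rose. The remaining 13 were not called after quantile normalization, among them the proteases *Lonp1* at 0.24 and *Clpp* at -0.13, and the HSP90 homolog *Trap1* at -0.54.

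Of 24 measured adaptors and regulators of fission, fusion and motility, 4 rose (16.7%, beside 7.56% of all genes) and 0 fell (beside 3.24%). Their median was 0.15. *Trak2*, which links mitochondria to kinesin and dynein motors, gave 7.03 and 6.88 in *lal+/+* and 8.55 and 8.58 in *lal−/−*, a difference of 1.61 (SE 0.13, adjusted p = 2.10e-04, limma). *Mff*, a receptor of the DNM1L protein on the outer membrane, gave 8.81 and 8.48 against 9.85 and 10.07, a difference of 1.32 (SE 0.16, adjusted p = 0.00115, limma). *Fis1* and *Mff*, which both act as adaptors of the fission GTPase, thus rose beside a *Dnm1l* value that was not called in any of the 3 scalings. *Fundc1*, a mitophagy receptor, gave 8.39 and 7.40 against 9.15 and 9.29, a difference of 1.33 (SE 0.30, adjusted p = 0.0146, limma), and *Mtfr2*, a regulator of fission, gave 1.03 (SE 0.14, adjusted p = 0.00185, limma), from a *lal+/+* level below that of silent genes, and 0.92 in the values as deposited, where it was not called. The *lal−/−* mean of *Mtfr2* was 1.19-fold above the level of silent genes in *lal+/+*, which is below the fold threshold.

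The regulators of mitochondrial biogenesis and the mtDNA maintenance genes were mostly not called. Of 19 measured, 0 rose and 1 fell, with a median of 0.08, where 7.56% of all genes rose and 3.24% fell. *Myc*, which binds the E-box, gave 9.30 and 9.12 in *lal+/+* and 7.11 and 7.40 in *lal−/−*, a difference of -1.96 (SE 0.15, adjusted p = 2.07e-04, limma). *Tfam*, the packaging and transcription factor of mtDNA, gave 8.19 and 8.09 against 7.18 and 7.16, a difference of -0.96 (SE 0.12, adjusted p = 0.00135, limma) just short of the fold threshold. *Nrf1* gave 0.51, *Gabpa* 0.40, and the coactivators *Ppargc1a* -0.54 and *Ppargc1b* 0.08, none past the fold threshold after quantile normalization. *Gabpa*, the ETS factor of the site searched above, was 0.86 as deposited and 1.04 with a common median, where it and its partner *Gabpb1* (1.03) were called higher. B cell and macrophage markers moved in the same direction as *Myc*, *Hspa9*, *Hspe1* and *Hspd1*, and their part in these differences was not tested.

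The contents of the organelle are given for comparison. Of 19 measured citrate cycle enzymes, 2 rose (10.5%), with a median of 0.49: *Mdh2* by 1.43 (SE 0.13, adjusted p = 4.36e-04, limma) and *Sdhb* by 1.34 (SE 0.23, adjusted p = 0.00522, limma). Of 77 mitochondrial ribosomal protein genes 12 rose (15.6%) with a median of 0.38, and of 35 complex I subunit genes 13 rose (37.1%) with a median of 0.85. Of all genes, 7.56% rose and 3.24% fell. None of these 3 lists had a gene that fell in any of the 3 scalings. Their counts of risen genes were larger in the other scalings, with 6 as deposited and 8 with a common median for the citrate cycle (medians of 0.69 and 0.87), 17 and 24 for the ribosomal proteins, and 21 and 23 for complex I. The share of all genes that rose was larger there too, at 10.1% as deposited and 13.1% with a common median.

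**Figure D5:**
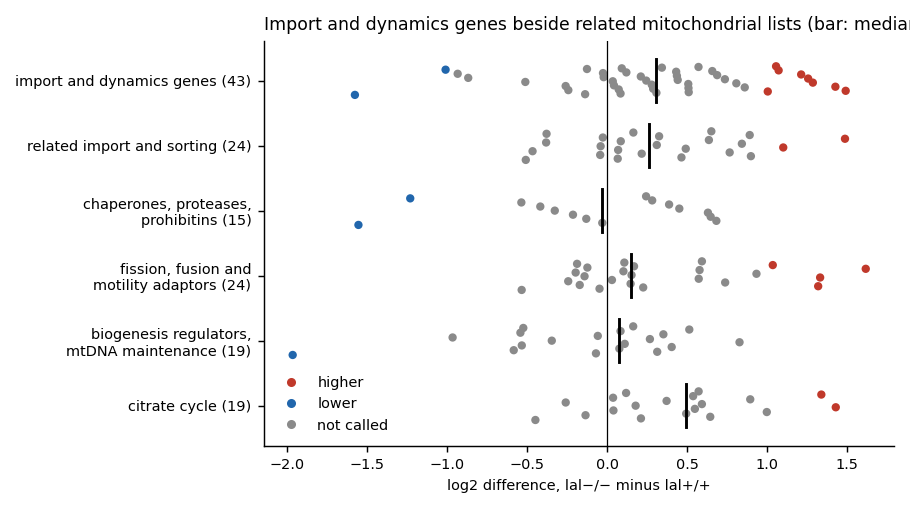
Difference between *lal−/−* and *lal+/+* cells on the log2 scale for each gene of the import and dynamics set and of 5 related lists (points, coloured by call, number of genes in brackets) with the list median as a bar. The called decreases are *Hspa9* and *Timm8a1* in the set (2 of 43), *Hspe1* and *Hspd1* among the chaperones (2 of 15), and *Myc* among the regulators (1 of 19). Of all genes tested, 3.24% fell.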

How the data were processed

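RNA of the selected cells was measured on whole-transcript arrays (Affymetrix). The authors made the deposited log2 expression values by RMA in Partek Genomics Suite, per the methods, and the submitters' processing notes name GCOS 1.1. The labels name NuGEN kits for amplification and labelling, and the methods an Affymetrix kit. The table holds 35557 probe sets, of which 21789 name 1 gene and 1621 name several, and the latter were not tested. Arrays give no counts, so the number of arrays limits the precision.

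Column medians lay over 0.1 apart, so quantile normalization was applied to the deposited values. limma 3.58.1 in R 4.3.3 then fitted genotype to each probe set, with prior degrees of freedom of 4.83 and residual ones of 2. Benjamini-Hochberg adjustment ran over all 21789 probe sets. The study's model has a tissue term that could not be fitted here, where bone marrow is the only tissue. For a gene with several probe sets the brightest was used, and SE is that of the moderated fit. All 2154 genes with a 2-fold difference had an adjusted p under 0.05, so the fold threshold set the calls. For pairs, the SE is that of the difference between the array values of the genes. The script was tested on simulated data. The members, roles, lists and pairs were chosen with earlier results of these data known. Every member is named, with full statistics for the largest change in each role and for the 4 largest called changes in each direction. From each related list at most the 4 largest called changes in each direction were named, along with *Lipa*, *Ly6g* and 6 regulators. Genes outside this rule (*Grpel2*, *Lonp1*, *Clpp*, *Trap1*, *Parl*, *Gabpb1*, *Ctsg*, *Mpo*, *Itgam* and *Csf3r*) were chosen after their values were seen.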

Additional observations from a re-analysis of the deposited data

How the results depend on the processing

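Across 641 comparisons of a single gene with one of 15 other settings, 572 kept direction and call, 27 lost a call, 21 gained one, and the remaining 21 were sign changes of genes that were not called. The 572 include genes that stayed uncalled, and 33 of the 43 were uncalled to begin with. They also include the replicate blocks and the robust variances with an intensity trend, which left the log2 differences unchanged and moved no call. *Fis1*, *Mfn2*, *Timm17b* and *Tomm22* were called in every setting but the ordinary linear model. Members that fell numbered 1 in the values as deposited, 0 with a common median and 1 when probe sets of the same gene were averaged. The ordinary linear model, with 2 residual degrees of freedom, called 0 members higher and 0 lower, and 0 and 0 of all genes. In it 12 of the 43 members and 5691 of the 19938 genes had an unadjusted p under 0.05, which are similar shares. The study's own model, with its tissue term, could not be fitted here, so these counts do not stand for the study's analysis. Without a fold threshold 18 members were higher and 5 lower, as were 3938 and 1963 of all genes. The member median was 0.53 as deposited and 0.71 with a common median. With a common median 2620 of all genes rose and 466 fell, and as deposited 2013 and 632, against 1508 and 646. Leaving out 1 array at a time gave 7 to 8 members higher, 1 to 2 lower, a median of 0.30 to 0.34, and 1419 to 1753 of all genes higher and 631 to 734 lower, where a lone array is assumed to vary like the arrays of the other genotype. An adjusted p under 0.01, or adjustment over all probe sets, took *Oma1* and *Tomm5* from the calls.

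With the replicate number as a block, 8 members were higher and 2 lower. Deviations of same-numbered arrays correlated at -0.175, and with 2 arrays a genotype this cannot settle whether the numbers mark a pairing. The crossed block, added after seeing the data, gave 8 and 2 as well. A block leaves the log2 differences unchanged, and the fold threshold set the calls, so these counts test little.

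The sign changes were these. As deposited, *Immt* was 0.10, *Mtx2* -0.063, *Pam16* 0.089, *Tomm20* 0.10, *Tomm40* -0.030 and *Tomm40l* -0.0027. With a common median *Immt* was 0.28, *Pam16* 0.27, *Tomm20* 0.28 and *Tomm20l* 0.069. With 1 array left out, *Timm23* ranged from -0.035 to 0.12, *Timm8a2* from -0.049 to 0.0063, *Tomm34* from -0.61 to 0.056, *Tomm40* from -0.12 to 0.20, *Mtx2* from -0.086 to 0.33, *Tomm20l* from -0.094 to 0.043 and *Tomm40l* from -0.14 to 0.28.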
